A study of Mus musculus with 18 samples.

Results

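The histone genes of the mouse were examined in an assay of open chromatin (ATAC-seq, in which a transposase cuts and tags accessible DNA). They were 72 of the 20326 genes to which peaks were given, chosen by symbol: the clustered Hist1h to Hist4h genes and the H2af, H1f and H3f genes. No measured value entered this choice. Of the 72, 69 encode a histone protein: 9 a linker histone H1, 20 an H2A, 15 an H2B, 14 an H3 and 11 an H4. The other 3 are H3f3aos (the antisense partner of H3f3a), Hist3h2bb-ps (named as a pseudogene) and Hist1h2aj, which was placed in no family.

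The study compared 9 lymphomas with 3 kinds of normal lymphocyte, in 18 libraries made from the same stated number of cells. The lymphomas (mPTCL, mouse peripheral T-cell lymphoma) had the strain C57BL/6 and the genotype p53KO. They grew out of p53KO T cells placed in CD3KO hosts, which make no T cells of their own but keep B and NK cells, and they were sorted from liver with no sort marker named. The normal cells were WT C57BL/6 with 3 libraries each: T cells (CD3+ thy1+, spleen), NKT cells (CD3+ and bound by the alpha Gal Cer CD1d tetramer; liver by the sort label, though the titles carry Sp) and NK cells (CD27- CD11b+, spleen). Every comparison of lymphomas with normal cells thus spans a change of genotype and gate, and by the sort label also of tissue for T and NK cells, so their parts cannot be told apart. The lymphomas are numbered here from 1 to 9 in order of deposit. No label ties a library to an animal of its own; the p-values below rest on the variation among these 18 libraries.

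Histones are the proteins around which DNA is wound: H2A, H2B, H3 and H4 form the nucleosome core, and H1 binds the linker DNA. The clustered genes are replication-dependent. They have no introns, their mRNA ends in a stem-loop instead of a poly(A) tail, and they are transcribed in S phase when the kinase CDK2 with cyclin E activates NPAT, the factor that gathers at histone loci. Replacement variants such as H2A.Z (H2afz), H2A.X (H2afx), macroH2A (H2afy) and H3.3 (H3f3a, H3f3b) are made throughout the cell cycle from separate genes. Promoters of clustered genes are known for a TATA box, CCAAT boxes and, in H2B genes above all, the octamer that the factor OCT1 binds.

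The deposited peaks were 500 bp long on the mm10 build (GRCm38), and 111 of 61224 were given to a histone gene. Of these 111, 64.9% were in the promoter class, against 32.6% of all peaks. Of the 72 genes, 48 were on chromosome 13, 11 on chromosome 3 and 5 on chromosome 11. Those on chromosome 13 formed 3 clusters, chr13:21710878-21787534 with 13 genes, chr13:22035366-22044699 with 5 and chr13:23526186-23764496 with 29. A cluster of 10 genes stood at chr3:96219420-96269918 and 1 of 3 genes at chr11:58948490-58955495. Whether the deposited starts count from 0 or 1 is not stated. Because the genes lie so close, 30 of the 111 peaks were given to 2 or more of them, 47 genes shared a peak with another histone gene and 16 had exactly the peaks of a neighbour, which left 64 distinct sets of peaks. A gene's level below is the sum of its peaks' counts divided by the TMM-scaled size of the library (CPM), a measure of accessibility and not of mRNA.

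Promoter windows of 300 bases (250 before the start and 50 after it) were found for 63 of the genes in the RefSeq table for GRCm38.p6. The windows printed below belong to genes on which the results turn: the H2B and H4 genes with the lowest levels in the lymphomas relative to T and NKT cells (Hist3h2ba and Hist1h4f), an H4 and an H2A gene that were higher than in NK cells (Hist1h4a and Hist1h2ab), and the gene of the replacement variant H2A.Z (H2afz). Each is on the strand of its gene, 5′ to 3′, and capitals mark matches on either strand to a CCAAT box, a TATA box (TATAAA) or the octamer (ATTTGCAT). The positions are chr11:58948661-58948960 (plus strand) for Hist3h2ba, chr13:23551619-23551918 (minus) for Hist1h4f, chr13:23761200-23761499 (minus) for Hist1h4a, chr13:23750838-23751137 (plus) for Hist1h2ab and chr3:137864237-137864536 (plus) for H2afz.

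Hist3h2ba: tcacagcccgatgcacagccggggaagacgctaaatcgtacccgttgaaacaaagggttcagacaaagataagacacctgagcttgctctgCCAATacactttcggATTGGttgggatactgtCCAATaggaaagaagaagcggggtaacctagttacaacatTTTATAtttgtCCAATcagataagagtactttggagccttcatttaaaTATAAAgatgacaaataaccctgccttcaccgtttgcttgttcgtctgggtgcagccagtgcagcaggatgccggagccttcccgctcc
Hist1h4f: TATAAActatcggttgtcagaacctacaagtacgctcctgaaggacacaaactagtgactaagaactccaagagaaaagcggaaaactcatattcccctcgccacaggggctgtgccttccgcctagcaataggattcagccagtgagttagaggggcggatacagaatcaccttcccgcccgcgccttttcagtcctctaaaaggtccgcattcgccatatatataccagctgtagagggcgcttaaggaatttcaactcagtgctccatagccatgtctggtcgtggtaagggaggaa
Hist1h4a: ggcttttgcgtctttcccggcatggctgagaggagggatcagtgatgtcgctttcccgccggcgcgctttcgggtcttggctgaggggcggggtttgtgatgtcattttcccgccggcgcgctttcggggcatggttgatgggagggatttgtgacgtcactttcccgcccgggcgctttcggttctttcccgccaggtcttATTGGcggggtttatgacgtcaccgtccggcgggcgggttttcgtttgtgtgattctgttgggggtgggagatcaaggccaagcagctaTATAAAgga
Hist1h2ab: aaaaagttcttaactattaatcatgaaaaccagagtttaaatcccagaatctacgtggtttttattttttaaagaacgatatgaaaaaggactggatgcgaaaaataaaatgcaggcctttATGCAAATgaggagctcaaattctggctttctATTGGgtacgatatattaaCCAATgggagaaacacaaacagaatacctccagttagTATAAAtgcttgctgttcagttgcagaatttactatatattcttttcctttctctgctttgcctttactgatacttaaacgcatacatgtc
H2afz: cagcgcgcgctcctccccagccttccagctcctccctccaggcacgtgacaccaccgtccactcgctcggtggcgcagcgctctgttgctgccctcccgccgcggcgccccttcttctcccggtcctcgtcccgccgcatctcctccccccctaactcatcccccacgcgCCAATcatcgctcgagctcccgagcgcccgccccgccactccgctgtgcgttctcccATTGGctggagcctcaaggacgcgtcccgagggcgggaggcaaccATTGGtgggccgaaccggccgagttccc

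The window of Hist3h2ba held 4 CCAAT matches and TATA matches at bases -87 and -39 from the start site, and lay wholly within the gene's peak. That of Hist1h2ab held the octamer at -129, CCAAT matches at -97 and -78 and TATAAA at -41. The window of Hist1h4f held no CCAAT match, and its single TATAAA match was at its first base, -250. CCAAT (either strand) was found in 53 of the 63 windows (84.1%), against 37.4% of 32817 RefSeq promoter windows of that length. TATAAA was found in 32 (50.8%, against 13.6%) and the octamer in 13 (20.6%, against 1.74%). The families differed: all 13 H2B and all 12 H3 windows held CCAAT but 3 of 10 H4 windows did, and the octamer was in 6 of 13 H2B, 6 of 19 H2A, 1 of 12 H3 and no H1 or H4 window. A match is a run of letters, not a measured binding site.

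The depth was 670358 to 4844441 counts in the lymphomas, 979441 to 2358023 in T cells, 1433904 to 9097014 in NKT cells and 417107 to 596601 in NK cells. Histone peaks took 0.196% to 0.343% of a library. The NK libraries stood apart: the median SD of the histone genes' log2 CPM was 0.71 there, against 0.38 in the lymphomas, 0.22 in T cells and 0.20 in NKT cells, and even numbers made up 80.5% to 84.0% of their nonzero peak counts, against 51.2% to 74.1% elsewhere. For the named genes called against NK cells, the libraries whose removal ended the call are therefore given. All 8 T-cell markers were measured and none was at 0 in any lymphoma; their summed level was 293 to 504 CPM in the lymphomas, 541 to 642 in T cells, 806 to 890 in NKT cells and 281 to 325 in NK cells. Trp53, the gene named as knocked out, had peaks in every group (54.5 to 107 CPM in the lymphomas, 49.2 to 67.8 in T cells), and since the deleted stretch is not given these do not check the label.

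More histone genes were lower than higher in the lymphomas, relative to T and NKT cells, when all chromosomes shared 1 scaling. Against NKT cells 28 of the 72 were lower and 5 higher, with a median log2 fold change of -0.36 (all genes: median 0.06, 20.2% lower and 25.5% higher). Against T cells 19 were lower and 3 higher (median -0.35; all genes 0.12, 14.7% lower and 16.2% higher). Against NK cells 11 were higher and 5 lower, though the median was below 0 (-0.14; all genes 0.13, 11.2% higher and 10.3% lower). A gene was called at an adjusted p below 0.05 (edgeR's quasi-likelihood test, Benjamini-Hochberg over all 20326 genes), and fold changes are log2 with the SE after ±. Counting each distinct set of peaks once, the calls were 5 higher and 22 lower against NKT cells, 3 and 16 against T cells, and 11 and 5 against NK cells. Single libraries moved these counts: 16 genes were lower than in NKT cells without NKT 1 and 17 without NKT 2, 11 lower than in T cells without T 1 and 6 without T 3. Against NK cells 1 was lower without NK 1, 8 without NK 2 or mPTCL 3, and the higher count was 3 without NK 2 and 1 without NK 3. The 3 comparisons share the 9 lymphomas, so they are not independent of each other, and in bulk libraries a lower level in each cell cannot be told apart from fewer cells with the open site.

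The count of lower genes turned on the chromosome against which they were read. With TMM scaling computed within each chromosome from genes that are not histones, the calls against NKT cells came to 11 higher and 7 lower (median 0.01; all genes 23.9% higher, 18.0% lower), and 2 of the original 28 were among the 7. Against T cells 4 were higher and 4 lower (median 0.12; all genes 12.8% and 12.6%). Against NK cells 10 were higher and none lower (median 0.21; all genes 7.86% and 8.87%), and 8 of the original 11 higher genes were among the 10. With each gene read against the non-histone peaks within 5 Mb (local scaling), the calls were 10 higher and 13 lower against NKT cells (all genes 26.5% and 14.6%), 4 and 2 against T cells (12.0% and 11.3%), and 5 and 1 against NK cells (6.69% and 6.51%).

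**Figure D1:**
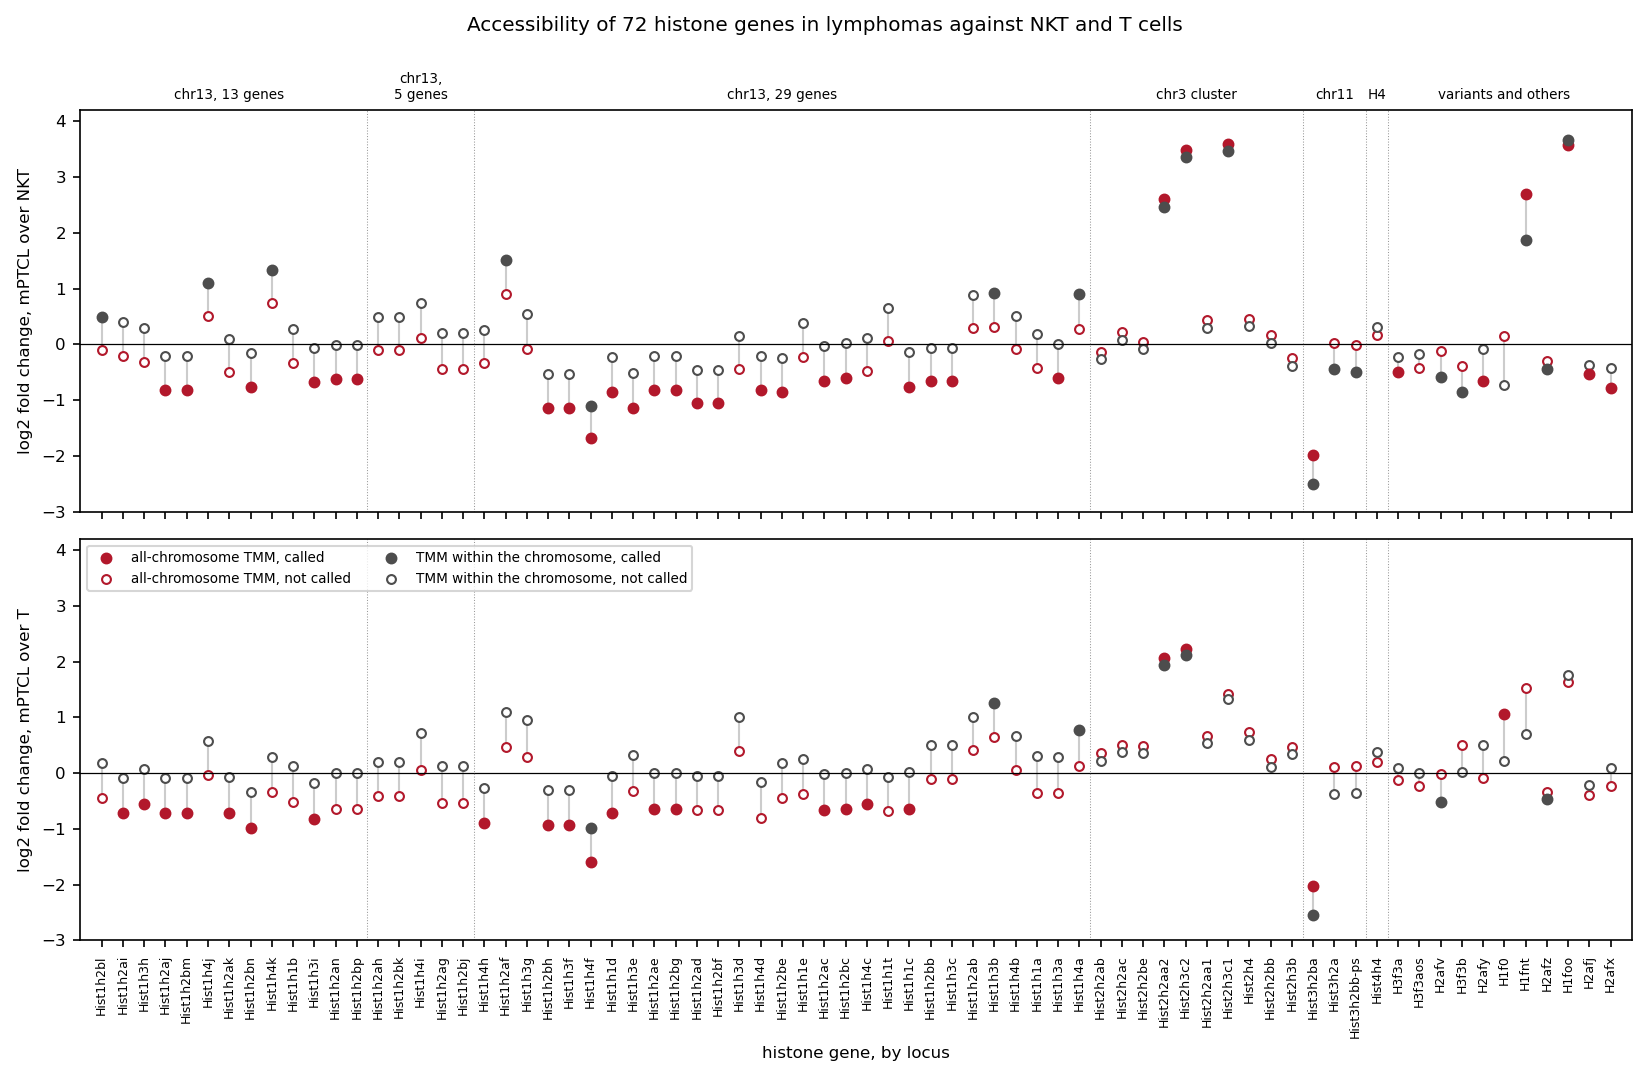
Log2 fold change of each of the 72 histone genes (points, in order along the genome by cluster) in lymphomas over NKT cells (top) and over T cells (bottom), with 1 scaling for all chromosomes in red and scaling within each chromosome in grey; filled points passed the test. With 1 scaling 28 genes were lower than in NKT cells and 19 lower than in T cells, and with scaling within chromosomes 7 and 4 were.

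The histone genes of chromosome 13 were lower by a median close to that of the other genes of the whole chromosome. The 738 other genes there had a median of -0.59 against NKT cells with 45.9% lower, -0.59 against T cells with 40.7% lower, and -0.42 against NK cells with 25.9% lower. The 48 histone genes had medians of -0.55, -0.54 and -0.41, with 24, 18 and 5 lower. The median of the genes around the clusters (within 5 Mb) was nearer to 0. Around the large cluster it was -0.33 over 66 genes against NKT cells and -0.28 against T cells, while the 29 histone genes had -0.65 and -0.54. Around the 13-gene and 5-gene clusters it was -0.36 and -0.35 over 72 genes, while the histone genes had -0.50 and -0.64 in the first and -0.10 and -0.41 in the second. Among the 47 genes of the 3 clusters, 23 were lower and none higher than in NKT cells with 1 scaling, and 1 lower and 6 higher with scaling within the chromosome, where the median went from -0.50 to 0.11. With local scaling 7 were lower and 5 higher (median -0.04). Against T cells 18 were lower with 1 scaling, and 1 lower and 2 higher with either regional scaling.

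In each library the sum over the peaks of those 47 genes, each shared peak counted once, could be set beside the level of the rest of chromosome 13. The sum was 762 to 1283 CPM in the lymphomas (median 1080), 1385 to 1598 in T cells and 1447 to 1699 in NKT cells, and it was 1773, 1043 and 1167 CPM in NK 1, 2 and 3. All 9 lymphomas were below all T and NKT libraries, while NK 1 was the highest of the 18 and the other two lay among the lymphomas. The other genes of the chromosome were also below the mean of the normal libraries in all 9 lymphomas, by -0.35 to -1.01 on the log2 scale, against -0.15 to 0.08 in the normal libraries. The histone sum relative to the chromosome was -0.05 to 0.52 in 8 of the lymphomas and -0.54 in mPTCL 8, the lymphoma with the lowest histone sum. It was -0.13 to 0.29 in T and NKT cells and 0.46, -0.51 and -0.28 in NK 1, 2 and 3.

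**Figure D2:**
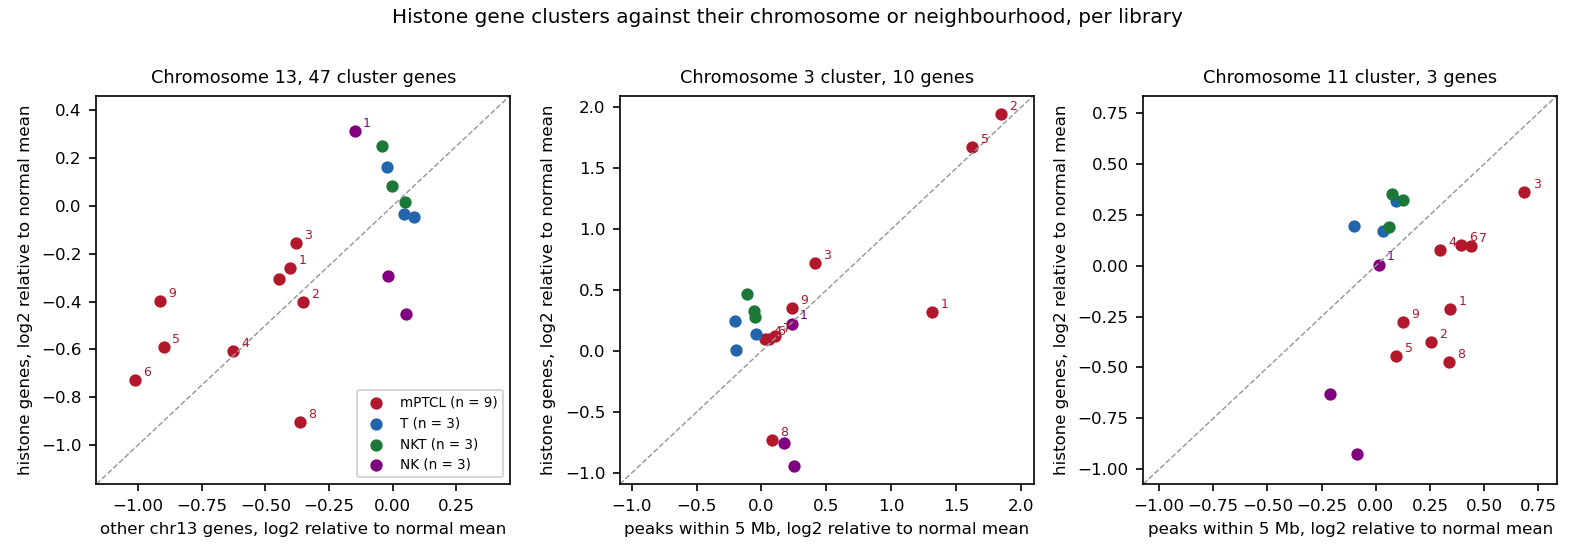
Summed level of the histone genes of a cluster (vertical) against the level of their surroundings (horizontal) in each library, both log2 relative to the mean of the normal libraries, for the chromosome 13 genes against other genes of that chromosome and for the chromosome 3 and 11 clusters against peaks within 5 Mb; lymphomas and NK 1 are numbered and the dashed line marks equality. On chromosome 13 all 9 lymphomas lie to the left of the normal libraries, between -1.01 and -0.35, and on chromosome 3 mPTCL 2 and 5 lie far up the line.

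Hist3h2ba, an H2B gene at the edge of the chromosome 11 cluster, had the lowest fold change of the 72 genes against both NKT and T cells, while other genes of its chromosome were on the whole higher. Its single peak, chr11:58948490-58948990 in the promoter class, stood at 6.04, 12.9, 18.2, 7.60, 3.97, 20.5, 6.87, 4.08 and 3.44 CPM in mPTCL 1 to 9. It stood at 35.3, 46.3 and 38.3 CPM in T cells, 46.2, 35.6 and 36.3 in NKT cells and 36.9, 4.31 and 12.6 in NK cells. Every lymphoma was below every T and NKT library, and the NK libraries spanned both. The fold change was -1.99 ± 0.40 against NKT cells (adjusted p = 0.000386, edgeR) and -2.02 ± 0.41 against T cells (adjusted p = 0.000742, edgeR). Other genes of chromosome 11 had a median of 0.49 against NKT cells, so scaling within the chromosome gave a lower value, -2.50 against NKT cells and -2.55 against T cells. Against NK cells it was -0.86 ± 0.54 and did not pass (adjusted p = 0.260, edgeR). Its neighbours Hist3h2a and Hist3h2bb-ps, which share a peak with each other, had fold changes of 0.02 and -0.01 against NKT cells and were not called with 1 scaling; within the chromosome they were lower, at -0.45 and -0.49. Hist3h2a was higher than in NK cells (0.81 ± 0.25), a call lost with both regional scalings and without NK 3.

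Hist1h4f, an H4 gene of the large chromosome 13 cluster, was lower by more than its chromosome. Its peak, chr13:23551368-23551868 in the promoter class, stood at 7.43, 7.49, 14.6, 6.08, 6.09, 6.34, 9.16, 5.44 and 4.30 CPM in mPTCL 1 to 9. It stood at 17.2, 25.3 and 26.7 CPM in T cells, 25.1, 25.8 and 23.3 in NKT cells and 22.6, 17.2 and 6.32 in NK cells. The highest lymphoma, mPTCL 3, was below the lowest T library. The fold change was -1.68 ± 0.34 against NKT cells (adjusted p = 0.000350, edgeR) and -1.59 ± 0.35 against T cells (adjusted p = 0.00141, edgeR). With scaling within the chromosome it was -1.10 (adjusted p = 0.00772, edgeR) and -0.98 (adjusted p = 0.0302, edgeR). Hist3h2ba and Hist1h4f were the 2 genes called lower than both NKT and T cells under all 12 other settings tried and with each of the 18 libraries left out.

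By family and with 1 scaling, 10 of 15 H2B genes were lower than in NKT cells (median -0.65; 20.2% of all genes) and 6 lower than in T cells (median -0.64; 14.7% of all genes). With scaling within the chromosome 1 was lower and 1 higher than in NKT cells (median -0.09) and 1 was lower than in T cells (median 0.01), and with local scaling 6 and 1 were lower (medians -0.33 and -0.18). Of 11 H4 genes 2 were lower than in NKT cells (median 0.11) and 3 lower than in T cells (median -0.04), and with either regional scaling 1 was lower and 3 were higher than in NKT cells. With 1 scaling H3 genes were lower in 6 of 14 and 3 of 14, H2A genes in 7 of 20 and 4 of 20, and H1 genes in 2 of 9 and 2 of 9. H2B and H2A genes are often paired around a shared promoter, so family counts rest partly on the same peaks. No test of the difference between families was made.

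Within the large chromosome 13 cluster 17 of 29 genes were lower than in NKT cells and 11 lower than in T cells, within the 13-gene cluster 6 and 7, and within the 5-gene cluster none. Of the other genes within 5 Mb, 27.3% were lower than in NKT cells and 21.2% lower than in T cells around the large cluster, and 29.2% and 22.2% around the other two. Hist1h2be, an H2B gene, stood at 48.9 to 95.2 CPM in the lymphomas (median 69.9), at 93.1, 87.5 and 107 in T cells and at 131, 119 and 132 in NKT cells. The lymphomas did not overlap the NKT libraries, and mPTCL 1 overlapped the T libraries. Its fold change against NKT cells was -0.85 ± 0.18 (adjusted p = 0.000504, edgeR), and the call was lost with scaling within the chromosome. Hist1h2bh, an H2B gene with the same peaks as the H3 gene Hist1h3f, stood at 31.3 to 74.8 CPM in the lymphomas (median 49.0), below all T (90.4, 96.2 and 117) and NKT libraries (139, 111 and 104). NK 2 at 32.3 and NK 3 at 69.6 lay among the lymphomas and NK 1 at 123 did not. The fold change was -1.13 ± 0.25 against NKT cells (adjusted p = 0.000825, edgeR) and -0.53 with scaling within the chromosome, which did not pass (adjusted p = 0.0996, edgeR).

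Hist1h3e, an H3 gene, stood at 21.7 to 45.6 CPM in the lymphomas (median 31.0), 59.5 to 97.0 in NKT cells and 39.8 to 44.1 in T cells. It was lower than in NKT cells (-1.13 ± 0.24, adjusted p = 0.000674, edgeR) and did not pass against T cells, where 7 lymphomas lay below all T libraries and 2 above them. Against NK cells (82.0, 79.7 and 25.3 CPM) it was lower by -0.86 ± 0.29 (adjusted p = 0.0308, edgeR), a call lost without NK 1 or NK 2 and with scaling within the chromosome. Against T cells the named lower genes were Hist1h2bn (H2B, -0.98 ± 0.25), Hist1h3i (H3, -0.82 ± 0.21) and Hist1h4h (H4, -0.89 ± 0.23). All 9 lymphomas lay below all T libraries for each of the 3, and all 3 calls were lost with scaling within the chromosome. Under the local scaling within 5 Mb, 8 of the 28 genes lower than in NKT cells kept the call: Hist1h2ad, Hist1h2be, Hist1h2bf, Hist1h2bh, Hist1h3e, Hist1h3f, Hist1h4f and Hist3h2ba.

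**Figure D3:**
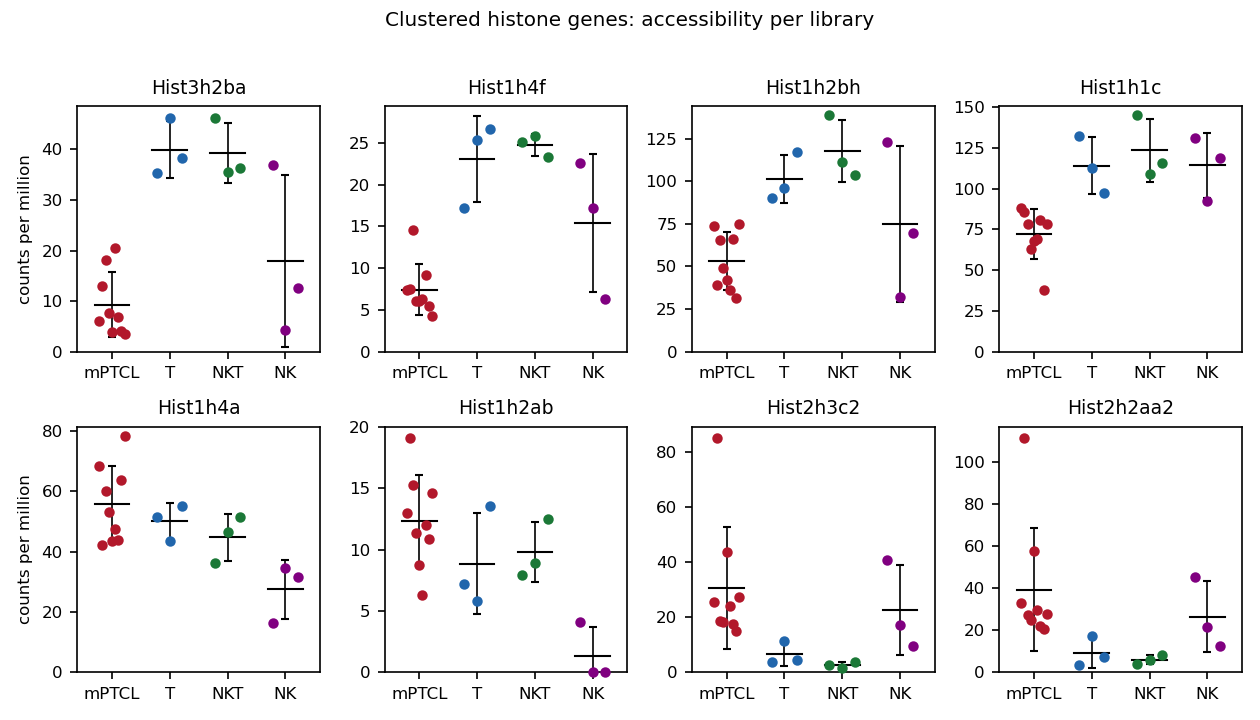
Level in CPM of 8 clustered histone genes in each library, by group, with the group mean and SD as bars (a lower bar stops at 0). For Hist3h2ba and Hist1h4f the 9 lymphomas lie below all T and NKT libraries, and for Hist2h3c2 the 9 lymphomas lie above all T and NKT libraries.

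Of the 9 linker histone genes 4 were lower in the lymphomas than in NK cells and none was higher, with 1 scaling. All 4 lie in the large chromosome 13 cluster. Lower than in NK cells were 10.3% of all genes and 25.9% of the other genes of chromosome 13. Hist1h1d, the gene of the somatic H1.3, stood at 15.5 to 34.1 CPM in the lymphomas (median 21.9) and at 53.3, 53.9 and 52.2 in NK cells, with no overlap (-1.17 ± 0.26, adjusted p = 0.00205, edgeR). It was also lower than in NKT cells (39.5 to 45.5 CPM, -0.85 ± 0.23) and than in T cells (24.4 to 49.9 CPM, -0.71 ± 0.24), the latter lost without T 2 or T 3. Hist1h1e, the gene of H1.4, stood at 11.2 to 24.4 CPM in the lymphomas against 49.2, 25.9 and 41.1 in NK cells (-1.13 ± 0.31, adjusted p = 0.0105, edgeR). The call for Hist1h1e was lost without NK 1 or NK 3. Hist1h1t, the testis H1, passed narrowly (-0.99 ± 0.36, adjusted p = 0.0460, edgeR) and lost the call in 14 of the 18 fits with a library left out, those without an NK library among them; its RefSeq promoter window met no peak, and its level comes from a peak shared with Hfe and Hist1h4c.

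Hist1h1c, the gene of H1.2, was lower than in all 3 normal groups with 1 scaling. It stood at 38.0 to 88.2 CPM in the lymphomas (median 78.2), 97.3 to 132 in T cells, 109 to 145 in NKT cells and 92.6 to 131 in NK cells, with no overlap. The fold changes were -0.75 ± 0.19 against NKT, -0.64 ± 0.19 against T and -0.65 ± 0.21 against NK cells (adjusted p = 0.00218, 0.0128 and 0.0243, edgeR). The call against T cells was lost without T 1 and that against NK cells without NK 1 or NK 3. With scaling within the chromosome they were -0.13, 0.01 and -0.08, and none passed. None of the 4 H1 calls against NK cells passed with scaling within the chromosome. With local scaling 1 did, Hist1h1d at -0.88 (adjusted p = 0.0229, edgeR).

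Other genes of the large chromosome 13 cluster were higher than in NK cells. Hist1h4a, an H4 gene at the end of that cluster, stood at 68.3, 42.2, 59.9, 53.2, 43.7, 47.5, 43.9, 63.9 and 78.2 CPM in mPTCL 1 to 9. It stood at 16.4, 34.5 and 31.6 CPM in NK cells, 51.5, 43.4 and 55.3 in T cells and 36.3, 46.5 and 51.4 in NKT cells. Every lymphoma was above every NK library and the lymphomas overlapped T and NKT cells. The fold change against NK cells was 0.995 ± 0.28 (adjusted p = 0.0133, edgeR), lost without NK 1 (0.74). Against NKT cells it was 0.29 and did not pass with 1 scaling, but was 0.91 with scaling within the chromosome (adjusted p = 0.00341, edgeR), where it also passed against T cells (0.78, adjusted p = 0.0182, edgeR). With 1 scaling the promoter peak of Hist1h4a, chr13:23761281-23761781, gave -0.20 ± 0.24 against NKT and -0.15 ± 0.25 against T cells, neither called. Against NK cells that peak was called (0.95 ± 0.31). The flanking peak, chr13:23759938-23760438, is shared with other histone genes. It gave 1.71 ± 0.59 against NKT cells, which was called, and 0.40 ± 0.57 against T cells, which was not. Hist1h3b, an H3 gene, gave 1.27 ± 0.42 against NK cells, a call lost without NK 2 or NK 3. With scaling within the chromosome it was called at 0.92 against NKT and 1.25 against T cells. Its peak shared with Hist1h2ab gave 3.26 ± 0.83 against NK cells with 1 scaling and was called. The other Hist1h3b peak, chr13:23752126-23752626, gave 0.53 ± 0.51 against NK cells and was not called.

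The promoter of Hist1h2ab, an H2A gene, was almost empty in NK cells. Its peak, chr13:23750858-23751358, which is shared with Hist1h3b, held 2 counts in NK 1 and 0 in NK 2 and NK 3, against 300 over the 9 lymphomas. The lymphomas stood at 6.34 to 19.1 CPM, T cells at 7.23, 5.78 and 13.5 and NKT cells at 7.92, 8.94 and 12.5. The pooled level was 9.13 times that of NK cells in the lymphomas (exact 95% interval 2.51 to 75.7, counting error only), 8.0 times in T cells (2.11 to 67.8) and 8.42 times in NKT cells (2.30 to 69.9). The call against NK cells (adjusted p = 0.00598, edgeR) was lost without NK 3. A peak in the 3′ UTR of Hist1h4c, chr13:23697426-23697926, held no count in NK cells: against a floor of 3 counts over the group, it was at least 5.48-fold higher in the lymphomas, 6.56-fold in T cells and 4.22-fold in NKT cells. The NK libraries were the shallowest, and PCR copies are not independent molecules. The intervals and the floor treat each count as independent, while 80.5% to 84.0% of the nonzero NK peak counts were even. If counts come in pairs, the intervals are too narrow and the fold bounds too high.

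The chromosome 3 cluster was high in a few lymphomas along with the region around it. The peaks of its 10 genes, each shared peak counted once, summed to 911 CPM in mPTCL 2 and 753 in mPTCL 5, to 253 to 391 in 6 other lymphomas and to 143 in mPTCL 8. The sum was 239 to 281 CPM in T cells, 287 to 327 in NKT cells, and 277, 140 and 123 in NK 1, 2 and 3. The 1015 peaks within 5 Mb that belong to no histone gene were higher than the mean of the normal libraries by 1.85 in mPTCL 2, 1.62 in mPTCL 5 and 1.31 in mPTCL 1 on the log2 scale. In mPTCL 1, however, the histone sum was higher by 0.32 only. The median of the 180 neighbouring genes was 1.2 against NKT cells, above the median of 0.33 of the 10 histone genes.

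Against NKT cells 3 of the 10 genes of that cluster were higher and none lower. Of the 180 neighbouring genes 51.7% were higher and 5% lower, and of all genes 25.5% and 20.2%. Hist2h3c2, an H3 gene, stood at 25.5, 85.1, 18.7, 18.2, 43.9, 24.3, 17.7, 14.9 and 27.5 CPM in mPTCL 1 to 9. It stood at 3.62, 11.6 and 4.51 CPM in T cells, 2.64, 1.74 and 3.63 in NKT cells, and 41.0, 17.2 and 9.49 in NK cells. The lymphomas were above all T and NKT libraries and overlapped NK cells. The fold change was 3.48 ± 0.58 against NKT cells (adjusted p = 5.17e-05, edgeR) and 2.23 ± 0.56 against T cells (adjusted p = 0.00391, edgeR), and local scaling gave 2.62 and 1.30, both called. NK cells were also above NKT cells (3.02 ± 0.69, adjusted p = 0.00430, edgeR), a call lost without NK 1.

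This gene had no promoter peak. Its level came from 3 flanking peaks between chr3:96235133 and chr3:96237799, shared with the H2A gene Hist2h2aa2; at chr3:96237299-96237799 alone the fold change against NKT cells was 4.19 ± 0.77, on 389 counts in the lymphomas and 12 in NKT cells. Hist2h2aa2 was accordingly higher too (2.61 ± 0.51 against NKT and 2.06 ± 0.53 against T cells). Its own promoter peak, chr3:96240500-96241000, gave 0.89 ± 0.66 against NKT cells and did not pass (adjusted p = 0.274, edgeR). Hist2h3c1, the third gene, was higher than in NKT cells (3.59 ± 0.92, adjusted p = 0.00298, edgeR) on 2, 4 and 13 counts in the NKT libraries. The promoter windows of Hist2h2aa1 and Hist2h2aa2 share a run of 219 of 300 bases and those of Hist2h3c1 and Hist2h3c2 a run of 231. Reads in such a run could be placed on either copy. The windows of Hist2h3c1 and Hist2h3c2 met no peak, however, and the sequences under the peaks that carry their levels were not compared. Whether reads of those peaks could be placed on either copy is not known, and these levels are uncertain. Against NK cells 3 other genes of the cluster were higher, Hist2h2aa1 (2.07 ± 0.72), Hist2h2ac (1.51 ± 0.50) and Hist2h2be (1.67 ± 0.56), all lost with local scaling. Of the 180 neighbouring genes 11.1% were higher than in NK cells. The calls at Hist2h2ac and Hist2h2be were also lost without NK 2 or NK 3, and that at Hist2h2aa1 without any 1 NK library, mPTCL 2 or mPTCL 5.

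Marker lists of other cell types were set beside the higher chromosome 3 genes, H1foo and H1fnt, without a test of whether they vary together. H1foo stood at 0, 0 and 3.16 CPM in NK 1, 2 and 3, on 2 counts, and was not called between lymphomas and NK cells. The B-cell and myeloid lists had similar ranges in NK cells and lymphomas. The 4 of 7 B-cell markers measured summed to 90.2 to 178 CPM in the lymphomas, 60.7 to 70.3 in T cells, 38.9 to 40.8 in NKT cells and 90.1 to 156 in NK cells. The 7 of 10 myeloid and Kupffer-cell markers measured summed to 133 to 183, 70.5 to 85.7, 62.7 to 72.4 and 128 to 185 CPM, and the 2 of 6 hepatocyte markers to 29.2 to 78.5, 11.8 to 20.7, 3.96 to 13.9 and 19.4 to 53.8. NK-cell markers (6 of 8) summed to 151 to 243, 66.0 to 108, 55.4 to 78.3 and 196 to 242, and endothelial and stromal markers (6 of 8) to 144 to 243, 142 to 182, 100 to 116 and 140 to 261. No measured marker of these lists was at 0 in every library of a group. Each of these 5 lists had its lowest value in an NKT library. The erythroid list (2 of 5 markers measured) did not. It summed to 32.0 to 65.6 CPM in the lymphomas and 25.3 to 54.2 in T cells. In NKT cells it summed to 38.9 to 46.0 and in NK cells to 28.0 to 32.8. The part of these lists in the result was not tested.

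H1foo, the oocyte linker histone, and H1fnt, the linker histone of spermatids, were higher than in NKT cells on few counts. The H1foo promoter peak, chr6:115947786-115948286, held 107 counts over the lymphomas, 10 over T cells, 9 over NKT cells and 2 over NK cells. It stood at 1.53 to 8.15 CPM in 8 lymphomas and at 20.6 in mPTCL 9, and at 0, 0.232 and 0.726 CPM in NKT cells (3.57 ± 0.98, adjusted p = 0.00495, edgeR). The flanking peak of H1fnt, chr15:98254911-98255411, stood at 0.929 to 8.87 CPM in the lymphomas, 0.415 to 1.32 in NKT cells, 1.45 to 1.81 in T cells and 4.10 to 12.9 in NK cells. H1fnt was higher than NKT cells in the lymphomas (2.70 ± 0.78) and in NK cells (3.63 ± 0.94), both lost without NKT 3 and the second also without NKT 2. Both calls of lymphomas over NKT cells, and that of Hist2h3c1, were lost under cyclic loess normalisation with limma. The promoter windows of H1foo and H1fnt met no peak of these genes.

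Among the 12 genes outside the clusters (Hist4h4 and the variant and other genes), 4 were lower and 2 higher than in NKT cells (all genes 20.2% and 25.5%). Of these 12, 1 was higher than in T cells (all genes 16.2%) and 2 were higher than in NK cells (all genes 11.2%). H2afz, the gene of H2A.Z, stood at 110 to 233 CPM in the lymphomas (median 155), 187 to 220 in T cells, 172 to 230 in NKT cells and 163 to 250 in NK cells, with overlap throughout. Its fold change was -0.30 ± 0.20 against NKT and -0.34 ± 0.20 against T cells and did not pass. H2afv, the second H2A.Z gene, gave -0.11 ± 0.20 and -0.02 ± 0.21. With scaling within their chromosomes, 3 and 11, both were called lower: H2afz at -0.43 and -0.47, and H2afv at -0.58 and -0.51. Neither passed with local scaling.

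H2afx, the gene of the damage-marked variant H2A.X, stood at 42.9 to 69.6 CPM in the lymphomas (median 49.5) and at 133, 76.4 and 63.5 in NKT cells. It was lower than in NKT cells (-0.78 ± 0.22, adjusted p = 0.00663, edgeR), but NKT 1 decided this: without it the value was -0.42 and did not pass (adjusted p = 0.177, edgeR). H2afy (macroH2A1, -0.65 ± 0.25), H2afj (H2A.J, -0.52 ± 0.20) and H3f3a (H3.3, -0.49 ± 0.18) were also called lower than in NKT cells, and all 4 calls were lost both with scaling within the chromosome and with local scaling. Single libraries also ended the calls of H2afy (NKT 2, NKT 3 or mPTCL 6), H2afj (any NKT library or mPTCL 4) and H3f3a (any NKT library). None of the 4 was called against T or NK cells. At H3f3a the difference lay in an exonic peak, chr1:180810254-180810754, at 22.4, 34.4 and 33.6 CPM in NKT cells against 1.87 to 18.1 in the lymphomas and 4.26 to 6.92 in T cells. That peak gave -2.08 ± 0.43 for lymphomas over NKT cells (adjusted p = 0.000404, edgeR on peaks) and 2.47 ± 0.64 for NKT over T cells (adjusted p = 0.0157, edgeR on peaks).

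H3f3b, the other H3.3 gene, was ordered NKT, lymphoma, T, NK by its median. It stood at 269, 226 and 194 CPM in NKT cells, 128 to 219 in the lymphomas (median 175), 104, 118 and 148 in T cells and 137, 90.5 and 88.5 in NK cells. The lymphomas overlapped all 3 groups, and T and NK cells overlapped each other. NKT cells were above T cells (0.89 ± 0.24, adjusted p = 0.0272, edgeR) and NK cells below NKT cells (-1.12 ± 0.25, adjusted p = 0.00374, edgeR). The lymphomas were higher than NK cells (0.74 ± 0.22, adjusted p = 0.0155, edgeR), which was lost without NK 2 or NK 3 and with scaling within chromosome 11, where instead they were lower than NKT cells (-0.86, adjusted p = 0.000127, edgeR). H1f0, the linker histone of resting cells, stood at 12.2 to 43.0 CPM in the lymphomas and 8.27 to 12.7 in T cells (1.06 ± 0.40, adjusted p = 0.0459, edgeR), a call lost in 10 of the 18 fits with a library left out. That call was also lost with both regional scalings. H1f0 lies on chromosome 15, where the other genes had a median of 0.97 against T cells and 52.3% were higher. Hist4h4, a lone H4 gene on chromosome 6, stood at 24.5 to 38.4 CPM in the lymphomas, 25.3 to 27.4 in T cells, 25.8 to 28.4 in NKT cells and 20.5, 8.62 and 14.2 in NK cells (1.07 ± 0.32 against NK cells, adjusted p = 0.0177, edgeR), also called with both regional scalings and lost without NK 2 or NK 3.

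**Figure D4:**
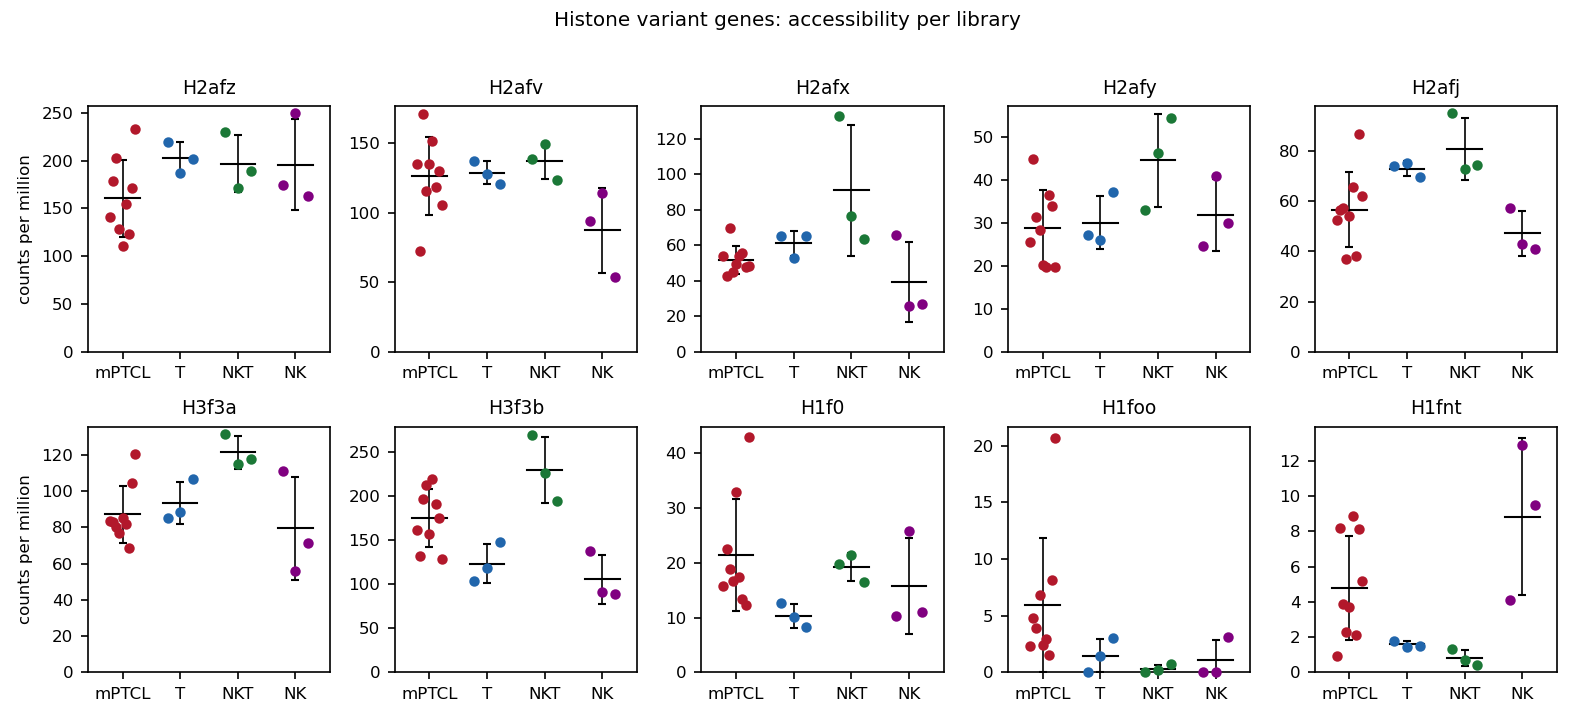
Level in CPM of 10 histone genes outside the clusters in each library, by group, with the group mean and SD as bars (a lower bar stops at 0). H2afz overlaps in all 4 groups, NKT 1 stands apart at 133 CPM for H2afx, and mPTCL 9 at 20.6 CPM for H1foo.

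Between the normal groups the calls were counted by gene and by peak. By gene, NK cells differed from NKT cells at 6 of 72 (14.8% of all genes), 3 higher (Hist2h3c2, Hist2h2aa2, H1fnt) and 3 lower (H3f3b, H2afx, Hist1h2ab). They differed from T cells at 1, Hist1h4h (-1.25 ± 0.35, adjusted p = 0.0316, edgeR; 5.48% of all genes), and NKT from T cells at 1, H3f3b (4.55% of all genes). The count of 6 was 14 without NK 1, 10 without mPTCL 8 and 3 without NK 2 or NKT 2. Of the calls between NK and NKT cells, that at H2afx was lost without NKT 1, NK 2 or NK 3. That at Hist1h2ab was lost without NKT 2, NKT 3, NK 2 or NK 3, and that at Hist2h2aa2 without NKT 1, NKT 2, NK 1 or NK 2. The call at Hist1h4h was lost without any 1 of the T libraries, NK 2 or NK 3, and 4 genes were called without NK 1. The call at H3f3b between NKT and T cells was lost without T 1, T 2, NKT 1 or NKT 2. By peak the number was larger for NK against NKT cells: 22 of the 111 histone peaks were lower and 4 higher. Of all 61220 peaks tested 6328 were lower and 4168 higher (17.1% in either direction). Of the 72 histone promoter peaks 15 were lower (20.8%) and none higher, where 15.5% of all promoter peaks were lower and 3.43% higher. NK cells differed from T cells at 4 peaks, all lower (4.8% of all peaks), and NKT from T cells at 3, all higher (5.23%).

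Between lymphomas and normal cells, of the 111 histone peaks 43 were lower and 9 higher than in NKT cells (all 61220 peaks tested: 19.4% and 23.2%), 23 lower and 1 higher than in T cells (11.4% and 8.27%), and 2 lower and 9 higher than in NK cells (3.76% and 6.03%). By class, 30 of 72 histone promoter peaks were lower than in NKT cells and 1 was higher, where 30.3% of all promoter peaks were lower and 12.3% higher. Among 20 flanking peaks 4 were lower and 6 higher (all flanking peaks: 10.6% and 28.7%), and among 11 peaks in 3′ UTRs 5 were lower and 2 higher (all such peaks: 9.32% and 32.3%).

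Of 19 genes for histone transcription and mRNA processing, 6 were lower and 1 higher than in NKT cells (median -0.38; all genes 20.2% lower and 25.5% higher). Npat, the coactivator named above, gave -0.98 ± 0.18, Hinfp, the H4 promoter factor, -1.02 ± 0.21 and Casp8ap2, a component of the histone locus body, -0.85 ± 0.20, while Lsm11, a subunit of the U7 snRNP that cuts histone mRNA, was higher at 0.69 ± 0.22. Against T cells (all genes 14.7% lower and 16.2% higher) 2 were lower, Ccne1 (cyclin E1, -0.95 ± 0.19) and Npat (-0.88 ± 0.19), and Slbp, the stem-loop binding protein, was higher (0.63 ± 0.18). Against NK cells (all genes 10.3% lower and 11.2% higher) 5 were higher, among them Cdk2 (1.58 ± 0.48) and Srrt (1.58 ± 0.44), and Npat was lower (-0.68 ± 0.21). Npat and Hinfp lie on chromosome 9, where 32.2% of the other genes were lower than in NKT cells. Lsm11 lies on chromosome 11, where 41.0% of the other genes were higher than in NKT cells.

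Of 23 measured histone chaperones and related genes (24 listed), 9 were lower and 2 higher than in NKT cells, 6 and 2 against T cells and 5 and 3 against NK cells, to be read beside those same shares of all genes. Asf1a, which hands H3-H4 to assembly factors, was lower against all 3 (-0.93 ± 0.19, -1.06 ± 0.20 and -1.07 ± 0.21). Hat1, which acetylates new H4, was lower than in NKT cells (-1.07 ± 0.19), and Chaf1a, the large subunit of CAF-1, and Asf1b were each higher than in NK cells (1.16 ± 0.28). Among 25 replication and mitosis genes the lymphomas were above NKT cells at 5 and below them at 6 (all genes 25.5% and 20.2%). The counts were 3 and 6 against T cells (all genes 16.2% and 14.7%) and 8 and 5 against NK cells (all genes 11.2% and 10.3%). Tk1, a thymidine kinase made in S phase, was higher than in NKT cells (1.80 ± 0.33) and T cells (1.84 ± 0.35), and Top2a and Aurkb, made in dividing cells, were higher than in NK cells (1.84 ± 0.33 and 1.5 ± 0.27). Mcm4, a subunit of the replicative helicase, was lower against all 3 groups (-0.84 ± 0.20, -1.12 ± 0.20 and -0.92 ± 0.23). The genes of these lists were read with 1 scaling for all chromosomes only, so shifts of whole chromosomes are not taken out of their values.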

How the data were processed

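ATAC-seq was read from the larger of 2 deposited peak tables (61224 peaks; the smaller held 27727, with 66 of the genes). Its values are whole-number counts per peak and library, and the authors also deposited log2 CPM values, checked against values recomputed from the counts. MACS2 2.1.2, bedtools, edgeR 3.24.3 and mm10 are named in the submitters' processing notes; for aligner, duplicate handling and gene assignment the sources used here name nothing. Groups came from the labels. Counts were summed per symbol, a peak with several symbols counting for each, and fitted over 18 libraries and 4 groups with edgeR 4.0.16 (R 4.3.3; TMM, filterByExpr, quasi-likelihood, Benjamini-Hochberg). All 72 genes passed the filter. Per-peak counts were fitted likewise. The biological coefficient of variation, from the 1 dispersion common to all genes, was 0.297. The fit was tested on simulated data. Alternatives were RLE and total scaling, TMM within chromosomes, local scaling, cyclic loess with limma 3.58.1, DESeq2 1.42.0, other filters, peak subsets, 2-group fits, a replicate block and each library left out. The members, gene lists and markers were chosen with earlier results of these data known. Named were the replacement variants, Hist1h1c, Hist4h4 and, per comparison and direction, the 5 called genes of lowest p; Hist1h3b, Hist1h4c, the chromosome 3 genes higher than in NK cells, the pseudogene beside Hist3h2a and the H3f3a peak were named after their values were seen.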

Additional observations from a re-analysis of the deposited data

Results flagged for a closer look

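Among 34 sets of 9 lymphoma values tested for a stray sample, 1 was marked: Hist1h1c had a log2 CPM of 5.28 in mPTCL 8, below the next lymphoma at 5.99. The gap was 0.599 of the whole range of the group, against a critical value of 0.493 for 9 samples. About 1 in 20 such sets is marked by chance. mPTCL 8 also had the lowest sum over the chromosome 13 histone genes and the lowest depth of the lymphomas.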

How the results depend on the processing

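Of 114 counts of called histone genes recomputed under other settings, 68 stayed within 1.5 times the reported count and 46 did not. The reported counts against NKT cells were 5 higher and 28 lower. The higher count was 11 with TMM within each chromosome, 10 with local scaling, 2 with cyclic loess, a mean count of at least 20 or promoter peaks only, and 0 in the smaller peak table. The lower count was 7 with TMM within each chromosome, 13 with local scaling, 18 with RLE, library totals, DESeq2 or a mean count of at least 20, 11 with cyclic loess or the smaller table, 16 with promoter peaks and 15 (of 35 genes) with peaks of 1 symbol. RLE moved the median over all genes against NKT cells from 0.06 to 0.19 and their calls from 5175 higher and 4096 lower to 5938 and 2990.

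Against T cells (3 higher, 19 lower) the higher count was 0 with peaks of 1 symbol and 1 in the smaller table. The lower count was 4 with TMM within each chromosome or the smaller table, 2 with local scaling, 10 with cyclic loess, 11 with promoter peaks and 6 with peaks of 1 symbol. Against NK cells (11 higher, 5 lower) the higher count was 5 with local scaling, 3 with peaks of 1 symbol and 6 with only the 2 groups fitted, and the lower count was 0 with TMM within each chromosome, 1 with local scaling, 9 with cyclic loess and 2 with only the 2 groups fitted. Counts that rest on fewer genes (67 with promoter peaks, 35 with peaks of 1 symbol, 66 in the smaller table) are lower in part by construction; the cause of the other shifts was not tested.

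For NK against NKT cells (6 calls) the count was 10 with TMM within each chromosome, 13 with local scaling and 3 with promoter peaks. For NK against T cells (1 call) it was 4 with local scaling, 2 with cyclic loess or peaks of 1 symbol, and 0 with promoter peaks, the smaller table or only the 2 groups fitted. For NKT against T cells (1 call) it was 0 with library totals, cyclic loess, promoter peaks or the smaller table, and 7 with only the 2 groups fitted.

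Leaving out 1 library at a time gave 4 to 5 higher and 16 to 31 lower against NKT cells, 2 to 4 and 6 to 25 against T cells, and 1 to 13 and 1 to 8 against NK cells. For the normal groups it gave 3 to 14 calls for NK against NKT, 0 to 4 for NK against T and 0 to 1 for NKT against T. The libraries behind these ranges are named beside the counts above.

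The labels number the normal libraries 1 to 3, but same-numbered libraries did not deviate together (9 correlations from -0.065 to 0.101; 6 of 18 best with their own number), so the numbers do not pair them. With the number as a replicate block on the normal libraries alone, NK against NKT gave 8 calls, NK against T 1 and NKT against T 1. The same libraries without the block, a setting chosen after seeing the data, gave 10, 1 and 1.

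Of 2941 fold changes of the named genes recomputed, 2729 kept their side of the threshold, 175 lost a call and 34 gained 1. A change of sign with no call in either fit is among the 2729. In 3 the sign changed with a call in either fit. Those 3 were H2afz against NK cells with peaks of 1 symbol (1.35), Hist1h1c against T cells with TMM within each chromosome (0.0134) and Hist2h2aa2 in NK against NKT cells with peaks of 1 symbol (-0.0318). Depth limits most the NK libraries and the 11 genes with under 20 counts over a group, among them Hist1h2ab, Hist1h3b, Hist2h2aa1, H1foo, H1fnt and Hist2h3c1.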
